A study of Mus musculus with 11 samples.

Results

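Cells make cholesterol from acetyl-CoA through mevalonate, farnesyl diphosphate and squalene, and the enzymes of this route are switched on together when membrane sterol runs low. The switch is the SREBP family of transcription factors, which Scap carries to the Golgi for cleavage and which the Insig proteins hold in the endoplasmic reticulum when sterol is plentiful. In the opposite state oxysterols activate the nuclear receptor LXR, which turns on the export pumps Abca1 and Abcg1. In the brain cholesterol is made locally, and both dividing neural precursors and myelin-forming cells are heavy users of it.

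The genes described here were 32 genes of this system, chosen by function and looked up by symbol, with no threshold on a measured value. They were chosen with earlier results of these data known, so counts of them are descriptions. All 32 were found among the 53801 genes of the tables. They comprised 20 synthesis enzymes, of which 8 act on the mevalonate steps and 12 on the sterol steps, with 5 genes of SREBP control, 3 of uptake and intracellular sterol transport, 2 of efflux and 2 of lysosomal export. Some genes of the pathway are not among them. All 32 passed the filter on low counts in every fit.

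RNA-seq had been made from primary mouse neural stem cells (NSCs) derived from the hippocampus, held for 7 days with 1 µM 4HBP or with its vehicle, ethanol (EtOH). The proliferation medium held the growth factors EGF and bFGF, each at 20 ng/ml, with 1% of the supplement B27, and the differentiation medium held neither growth factor and 2% B27. In proliferation medium there were 3 4HBP and 3 control libraries, and in differentiation medium 3 4HBP and 2 control libraries. No transgene or deletion is named for any group, and compound and medium are the only differences between groups that the labels name. Culture batch and date of preparation are not given. The sample labels expand 4HBP as 4-Hydroxybenzoic acid and the study itself names another compound, 4-hydroxybenzophenone, so the abbreviation is kept here. Nothing in the labels says that replicates came from separate cultures or animals, so p-values measure only the spread between these libraries, which may be technical.

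The libraries held 20822921 to 23438463 expected counts each, and 3 counts, taken here as the lowest countable level, were worth 0.128 to 0.144 CPM (counts scaled to the library total). One library stood apart: replicate 3 of the 4HBP group in proliferation medium differed from its 2 fellow replicates by a mean chi-square of 25.7 and 23.1 per gene. The value was 5.63 between those 2, and 10.1, 11 and 12.8 between pairs of controls in that medium. For the 32 genes, counts of calls in that medium are therefore given with and without replicate 3 of 4HBP. Markers of stem, dividing, neuronal, astrocytic and oligodendrocyte-lineage cells were present in all groups. The cultures may therefore have been mixed, which RNA of whole cultures alone cannot show. The summed level of 7 dividing-cell markers was 867 to 991 CPM in proliferation controls and 169 to 192 CPM in differentiation controls. Of 4 endothelial markers, which summed to 1.77 to 2.51 CPM, Cldn5 and Cdh5 were at 0 in every library, and 6 microglial markers summed to 1.24 to 3.82 CPM. In mixed cultures fewer cells of a type and less RNA per cell cannot be told apart.

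Promoters of sterol genes are known for binding SREBP together with the CCAAT-binding factor NF-Y, and both elements were looked for in RefSeq promoter windows (build GRCm38.p6, 250 bases before to 50 bases after the transcription start, both strands). Windows were at hand for 26 of the 32 genes, and some genes had several starts. The letters CCAAT were found in a window of 23 of these 26 genes (88.5%), against 41.1% of the 27025 genes that have a window and 43.2% of those that were also measured in the fit of 11 libraries. Among synthesis enzymes the count was 16 of 17, and 16 of the 26 genes held 2 or more matches. Acat2, Scap and Abca1 held none. The GC box letters GGGCGG were in 24 of 26 genes (92.3%), against 38.2% of all genes and 67.9% of the measured ones. The letters TCACNCCAC, the core of a classical sterol regulatory element, were in the window of 1 gene, Hmgcs1, and in 1.44% of all genes. A match is a description of letters, and its absence says nothing of a factor's binding.

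**Figure D1:**
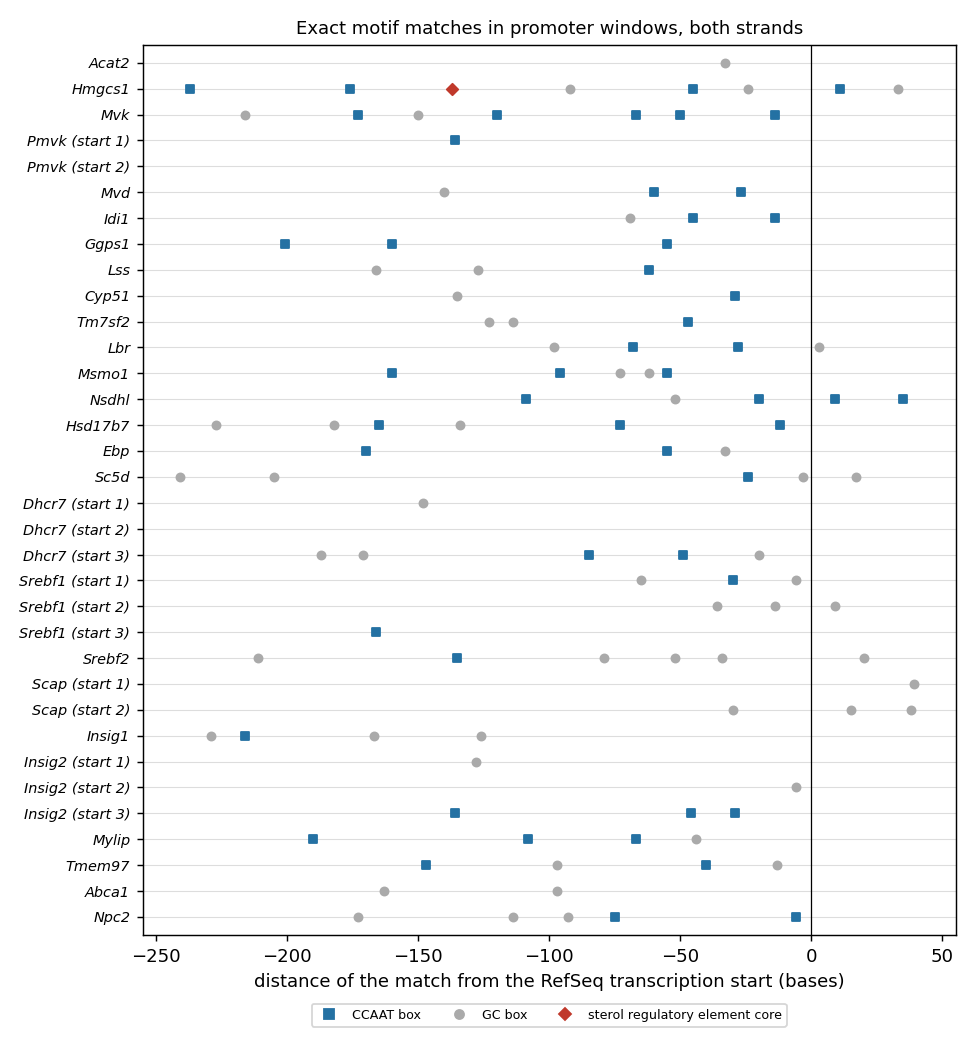
Matches of the 3 motifs in each RefSeq promoter window of the 26 genes with one, plotted as distance from the transcription start in bases (x axis), with 1 line for each start of a gene (y axis). Blue squares are CCAAT boxes, grey circles GC boxes and the red diamond the sterol regulatory element core; the 48 CCAAT matches before a start lay between -237 and -6 with a median of -67.

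The stretches just upstream of the start are shown for the genes whose response to 4HBP differed between media in the test given further on and that have 1 window. Each is written 5′ to 3′ on the gene's strand with bases inside annotated exons left off, and capitals mark the CCAAT box on either strand and the sterol regulatory element core. The first 5 belong to enzymes, the sixth to the SREBP inhibitor Insig1 and the last to the exporter Abca1. The stretches lie at chr13:119690191-119690350 (plus strand, Hmgcs1), chr5:114444109-114444268 (plus, Mvk), chr8:122443423-122443582 (minus, Mvd), chrX:72918412-72918520 (plus, Nsdhl), chr9:42264301-42264460 (minus, Sc5d), chr5:28071252-28071362 (plus, Insig1) and chr4:53159896-53160055 (minus, Abca1).
Hmgcs1: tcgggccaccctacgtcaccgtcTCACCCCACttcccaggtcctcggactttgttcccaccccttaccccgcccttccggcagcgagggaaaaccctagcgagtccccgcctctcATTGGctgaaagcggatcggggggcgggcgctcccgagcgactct
Mvk: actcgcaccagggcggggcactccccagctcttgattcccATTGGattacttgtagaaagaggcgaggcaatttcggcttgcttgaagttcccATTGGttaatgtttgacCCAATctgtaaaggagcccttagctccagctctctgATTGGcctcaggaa
Mvd: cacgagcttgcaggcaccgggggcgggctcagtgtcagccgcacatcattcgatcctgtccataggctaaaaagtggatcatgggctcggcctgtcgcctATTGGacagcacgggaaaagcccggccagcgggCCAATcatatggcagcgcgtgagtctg
Nsdhl: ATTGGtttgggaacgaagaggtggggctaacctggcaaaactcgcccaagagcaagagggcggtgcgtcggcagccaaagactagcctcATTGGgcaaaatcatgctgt
Sc5d: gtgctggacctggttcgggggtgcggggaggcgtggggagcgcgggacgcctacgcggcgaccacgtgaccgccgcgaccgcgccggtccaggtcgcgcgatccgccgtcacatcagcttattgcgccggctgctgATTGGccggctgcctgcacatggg
Insig1: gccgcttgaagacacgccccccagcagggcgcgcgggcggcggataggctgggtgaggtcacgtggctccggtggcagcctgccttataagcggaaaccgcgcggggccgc
Abca1: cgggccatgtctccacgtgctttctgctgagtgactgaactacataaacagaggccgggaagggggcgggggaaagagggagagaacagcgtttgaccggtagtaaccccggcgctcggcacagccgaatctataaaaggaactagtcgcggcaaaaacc
The genes themselves are annotated on GRCm38 with Hmgcs1 at chr13:119690379-119708260, Mvk at chr5:114444269-114460591 and Abca1 at chr4:53030787-53159895. The Mvk stretch holds 4 CCAAT matches, those of Mvd and Nsdhl 2 each, and those of Hmgcs1 and Sc5d 1 each. The Insig1 stretch holds none, since its match lies farther upstream, and neither does that of Abca1.

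Per unit of transcript length, Hmgcs1 stood highest of the 32 genes in all 4 groups. Its level was 346 ± 49.0 TPM (transcript level per length, SD, n = 3) in proliferation controls, 206 ± 58.5 TPM (n = 3) in proliferation 4HBP, 282 ± 18.6 TPM (n = 2) in differentiation controls and 368 ± 16.3 TPM (n = 3) in differentiation 4HBP. In proliferation controls it was followed by Msmo1 (137 TPM), Srebf2 (109 TPM) and Fdps (99.2 TPM), each above the next in every library, whereas the 14 genes from Srebf1 (85.4 TPM) to Scap (54.1 TPM) overlapped their neighbours in the order. In differentiation controls the order behind Hmgcs1 was Srebf1 (159 TPM), Abca1 (138 TPM) and Srebf2 (134 TPM), again without overlap. The lowest levels were those of Mylip, at 0.387 TPM in proliferation and 1.60 TPM in differentiation controls, and of Abcg1, at 0.740 and 3.76 TPM.

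**Figure D2:**
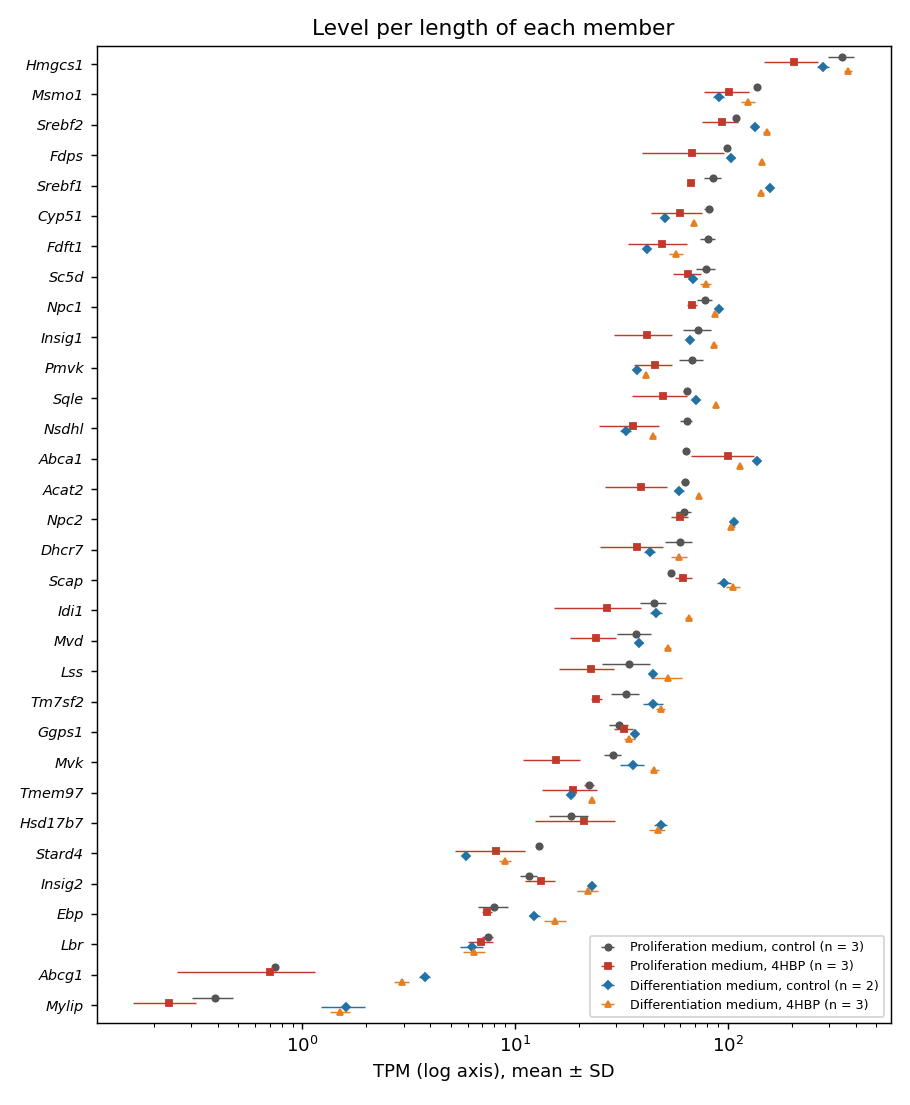
Mean TPM with SD (x axis, log scale) of each of the 32 genes (y axis, ordered by proliferation controls) in the 4 groups. Hmgcs1 is the highest of the 32 in every group, and Abcg1 and Mylip stand apart at the bottom.

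In differentiation medium most synthesis enzymes rose under 4HBP, by small amounts. Of the 20 synthesis enzymes 14 rose and 6 did not pass the test, with none lower, and the median change was 0.36 on the log2 scale, a 1.28-fold level, against -0.001 over all genes tested. Over all 32 genes 18 rose and 1 fell (59.4%), where 2.55% of the 15484 genes tested were called, 1.26% higher and 1.29% lower (edgeR quasi-likelihood, Benjamini-Hochberg adjusted p under 0.05 over all genes). The 3 4HBP libraries lay above both controls without overlap for 20 of the 32 genes and below them for 3, against 15.9% and 17% of all genes. Summed over the 20 enzymes, the level was 1636 and 1727 CPM in the controls and 2069, 2168 and 2217 CPM under 4HBP.

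The enzymes of the mevalonate steps were among the clearest. Hmgcs1, the HMG-CoA synthase at the head of the pathway, read 486 and 529 CPM in controls and 632, 684 and 687 CPM under 4HBP. Every treated library was above both controls, and the level was 1.32-fold that of controls (log2 0.40 ± 0.04 SE, edgeR adjusted p = 0.000182). Idi1, the isopentenyl diphosphate isomerase, went from 71.6 and 77.8 CPM to 103, 111 and 111 CPM, the largest change among the enzymes at 1.45-fold (adjusted p = 4.37e-05). Fdps, which makes farnesyl diphosphate, read 67.8 and 63.4 CPM against 91.2, 90.9 and 96.3 CPM (1.42-fold, adjusted p = 4.37e-05). Mvd, the decarboxylase that follows the mevalonate kinases, rose 1.39-fold (adjusted p = 0.000305), Mvk, mevalonate kinase, 1.3-fold (0.00745) and Acat2, the thiolase that joins acetyl-CoA units, 1.26-fold (0.000566). The level of Pmvk, phosphomevalonate kinase, was 1.12-fold, which did not pass (adjusted p = 0.222). Ggps1, which takes isoprenoid away from the sterol branch to make geranylgeranyl diphosphate, read 54.4 and 56.6 CPM in controls and 53.7, 56.5 and 57.7 CPM under 4HBP, an overlap of the groups (log2 0.02 ± 0.05 SE).

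On the sterol steps 8 of 12 enzymes rose. Cyp51, the lanosterol demethylase, read 110 and 114 CPM in controls and 151, 155 and 155 CPM under 4HBP, and its 1.38-fold level carried the smallest adjusted p of the 32 genes, 3.5e-05. Fdft1, squalene synthase, which commits farnesyl units to sterol, rose 1.36-fold (adjusted p = 0.000335), Nsdhl, a dehydrogenase of sterol demethylation, 1.37-fold (0.000356) and Dhcr7, the reductase of the last step of one branch, 1.36-fold (0.000563). Smaller rises were those of Msmo1 (1.33-fold), Sqle, squalene epoxidase (1.26-fold), Lss, lanosterol synthase (1.25-fold), and Sc5d, the sterol desaturase before Dhcr7 (1.2-fold, adjusted p = 0.00901). The 4 that did not pass were Tm7sf2 and Lbr, the pair of sterol reductases, Hsd17b7 and Ebp, with log2 changes of 0.02 to 0.10 and groups that overlapped.

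**Figure D3:**
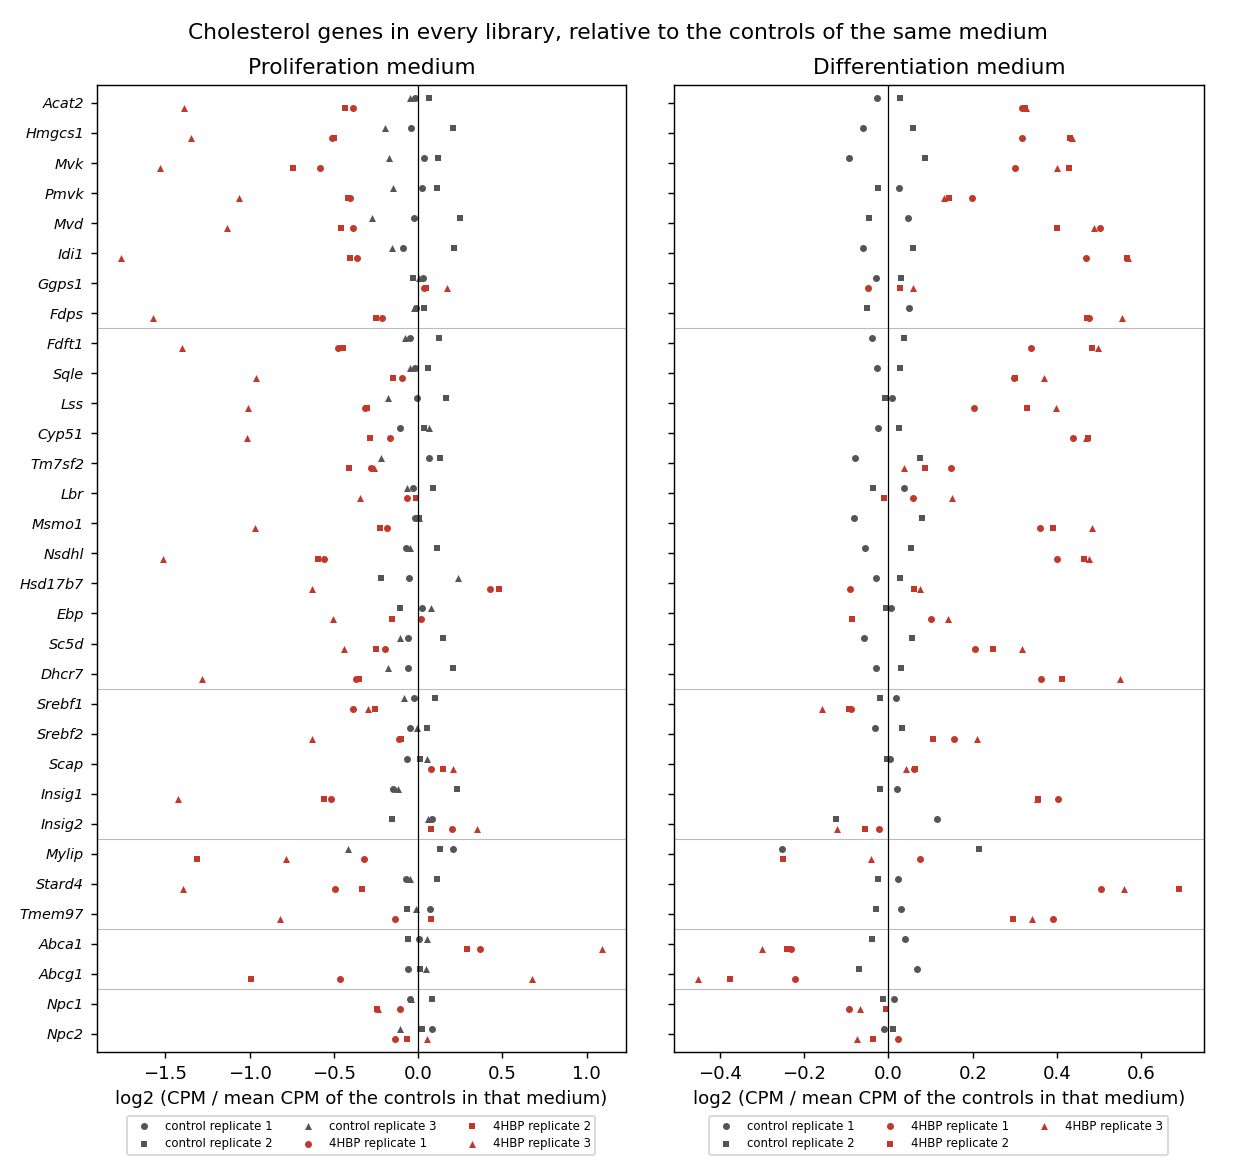
Level of each of the 32 genes in every library as the log2 of its CPM over the mean of the controls in the same medium (x axis, whose range is wider on the left), with proliferation medium on the left and differentiation medium on the right. Grey points are controls and red points 4HBP, with replicates 1, 2 and 3 as circles, squares and triangles. In differentiation medium the red points of most enzymes form a tight cluster above the controls, and in proliferation medium the red triangles, replicate 3, lie far to the left of the other replicates for most enzymes and far to the right for Abca1.

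The regulators moved less evenly. Insig1, itself a classical SREBP target, read 90.2 and 87.7 CPM in differentiation controls and 118, 114 and 114 CPM under 4HBP (1.3-fold, adjusted p = 0.000182). Srebf2, whose product drives the sterol genes, rose 1.12-fold, from 291 and 304 CPM to 331, 320 and 344 CPM (adjusted p = 0.0344). Srebf1, whose product leans toward fatty acid genes, read 294 and 286 CPM against 273, 272 and 260 CPM, lower in every library, and did not pass (log2 -0.11 ± 0.03 SE, adjusted p = 0.126). Scap and Insig2 had log2 changes of 0.06 and -0.06 and did not pass. Of the transport genes, Stard4, a cytosolic sterol carrier, gave the largest change of all 32 genes, from 16.2 and 15.7 CPM to 22.6, 25.7 and 23.5 CPM (1.51-fold, adjusted p = 0.000753). Tmem97, an endoplasmic reticulum protein that binds sterol and Npc1, rose 1.27-fold (adjusted p = 0.0391). Mylip, a ubiquitin ligase that removes lipoprotein receptors and is switched on by LXR, overlapped at 2.28 and 3.16 CPM in controls and 2.29 to 2.86 CPM under 4HBP.

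Abca1, the pump that loads cholesterol onto apolipoproteins, was the only one of the 32 genes that fell. It read 835 and 791 CPM in controls and 692, 689 and 660 CPM under 4HBP, 1.19-fold lower (log2 -0.25 ± 0.03 SE, adjusted p = 0.000479). The second efflux pump, Abcg1, lay lower in every treated library at 5.57 to 6.53 CPM against 7.25 and 7.98 CPM, and did not pass (log2 -0.34 ± 0.13 SE, adjusted p = 0.196). Npc1 and Npc2, which pass cholesterol out of the lysosome, overlapped between groups, with log2 changes of -0.05 and -0.02.

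The spread between libraries was smaller in differentiation medium, with a common biological coefficient of variation of 0.0368, against 0.117 in proliferation medium and 0.0907 over all 11 libraries. When all 11 libraries shared 1 estimate of the spread, or with limma, the package the study names, on log2(CPM + 1), none of the 32 genes and none of all genes passed, although the changes kept their size (median of the 20 enzymes 0.36 and 0.34). At an unadjusted p under 0.05, 5 genes were higher in the shared fit, beside 4.05% of all genes in either direction, and 19 were higher and 3 lower with limma, beside 10.3%. The study called genes with limma at a p under 0.05 that it does not name as adjusted, plus a fold change limit. That rule is unlike the adjusted threshold used here. DESeq2 called 17 higher and 1 lower (1.78% of all genes). Leaving out 4HBP replicate 1, 2 or 3 left 16, 17 and 16 higher (1.88%, 1.63% and 1.51% of all genes called), and leaving out control replicate 1 or 2 left 13 and 15 (0.482% and 1.14%), with 1 lower each time. The weakest calls were those of Tmem97, lost whichever library was left out (adjusted p = 0.0692 to 0.203), and Srebf2, lost without any but replicate 2 of 4HBP (up to 0.37). Lss was lost without either control, and Mvk and Sc5d without control replicate 1.

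In proliferation medium the same enzymes lay lower under 4HBP, with a wider spread between libraries than in differentiation medium, and few passed. Of the 32 genes 2 fell, Mvk and Srebf1, and none rose (6.2%), where 7.43% of the 14449 genes tested were called, 3.74% higher and 3.69% lower, so the share called was near the background. The sizes were not: 18 of 20 enzymes had a log2 change below 0, the median was -0.56, a 1.47-fold lower level, against 0.001 over all genes, and 14 of the 20 had an unadjusted p under 0.05 in that direction, where 25.1% of all genes had one in either direction. All 3 treated libraries were below all 3 controls for 21 of the 32 genes and above for 3, against 15.1% and 16.1% of all genes. The summed level of the 20 enzymes was 2343, 2639 and 2244 CPM in controls and 1912, 1878 and 1112 CPM under 4HBP, the last being replicate 3.

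Replicate 3 was the lowest of the 6 libraries for 18 of the 20 enzymes, at a median of 56.8% of the mean of replicates 1 and 2. Replicates 1 and 2 were themselves both below every control for 16 of the 20. The shares of all genes with these positions were not computed, so these counts cannot be called particular to the enzymes. Without replicate 3, 10 of the 32 genes fell and 2 rose, with a background of 9.75% called. The median of the enzymes was then -0.33, so without that library the change was smaller and more of the 32 genes were called. The 10 that fell were Acat2, Hmgcs1, Mvk, Pmvk, Idi1, Fdft1, Nsdhl, Srebf1, Insig1 and Stard4, and the 2 that rose were Abca1 and Hsd17b7. With all 11 libraries in 1 fit 15 fell and 1 rose (16.8% of all genes called), and with limma on log2(CPM + 1) none passed (0.0755%), with 15 lower and 2 higher at an unadjusted p under 0.05, beside 18.3% of all genes.

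Mvk read 30.7, 32.6 and 26.6 CPM in controls and 20.0, 17.9 and 10.4 CPM under 4HBP. No treated library reached the controls, and the level was 1.89-fold lower (log2 -0.92 ± 0.22 SE, adjusted p = 0.0384). The call was lost without replicate 2 of the 4HBP group or without any 1 of the 3 controls, with adjusted p up to 0.152. Nsdhl, at 90.3, 102 and 91.6 CPM against 64.4, 62.7 and 33.2 CPM, lay 1.80-fold lower and just missed (adjusted p = 0.0501). Hmgcs1 read 762, 907 and 684 CPM in controls and 551, 554 and 308 CPM under 4HBP (1.69-fold lower, adjusted p = 0.0676). Idi1 and Fdps leaned on replicate 3. Idi1 was at 88.7, 110 and 84.8 CPM in controls and 73.5, 71.3 and 27.8 CPM under 4HBP, and Fdps at 78.5, 81.1 and 77.6 CPM against 68.3, 66.4 and 26.6 CPM, with adjusted p of 0.178 and 0.256. Without replicate 3 their log2 changes went from -0.74 to -0.39 and from -0.58 to -0.24. The other enzymes with a lower mean ranged from 1.12-fold lower (Lbr) to 1.67-fold lower (Fdft1) and did not pass.

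The exceptions were Ggps1 and Hsd17b7. Ggps1 lay at 54.7 to 57.1 CPM in controls and 57.4, 57.8 and 62.9 CPM under 4HBP, which did not overlap but differed by 0.05 ± 0.07 SE on the log2 scale. Hsd17b7, a sterol ketoreductase, read 34.2, 30.5 and 41.8 CPM in controls and 47.8, 49.6 and 23.0 CPM under 4HBP, so that replicates 1 and 2 stood above the controls and replicate 3 below them.

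**Figure D4:**
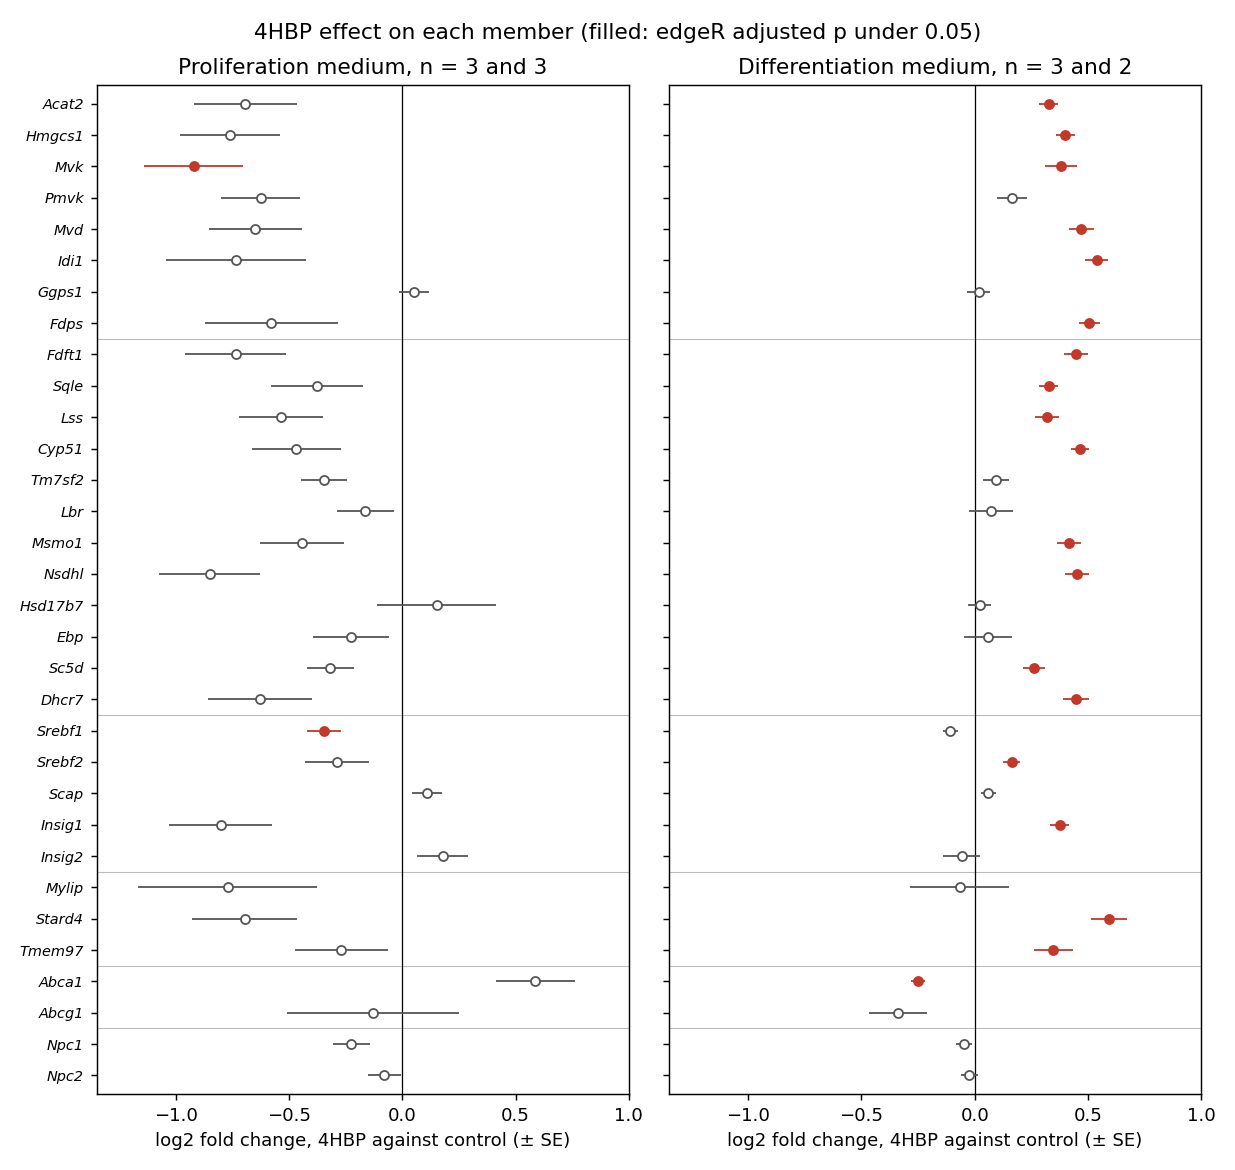
Log2 fold change of 4HBP against control with its SE (x axis) for each of the 32 genes (y axis), in proliferation medium (left, 3 against 3 libraries) and differentiation medium (right, 3 against 2). Filled red points passed an edgeR adjusted p of 0.05. Most enzymes lie left of 0 with wide bars on the left and right of 0 with narrow bars on the right, and Abca1 does the reverse.

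Among the regulators in proliferation medium, Srebf1 fell from 155, 169 and 149 CPM to 121, 132 and 128 CPM (log2 -0.34 ± 0.08 SE, adjusted p = 0.0288), and here replicate 3 did not stand apart. The call was lost without replicate 1 or 2 of the 4HBP group or of the controls, with adjusted p up to 0.124. Insig1 read 112, 146 and 115 CPM in controls and 87.0, 84.4 and 46.3 CPM under 4HBP (log2 -0.80 ± 0.23 SE, adjusted p = 0.0613), below the controls in every library. Srebf2 lay at 206 to 221 CPM in controls and 197, 199 and 138 CPM under 4HBP (adjusted p = 0.246). Scap and Insig2 had log2 changes of 0.11 and 0.18 and did not pass. Stard4 read 41.8, 47.3 and 42.4 CPM against 31.1, 34.8 and 16.7 CPM (adjusted p = 0.102), while Tmem97 and the scarcely expressed Mylip, at 0.333 to 0.955 CPM, overlapped between groups.

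Abca1 stood on the other side here. It read 469, 447 and 484 CPM in controls and 601, 570 and 994 CPM under 4HBP, above the controls in every library and highest in replicate 3. The change was 1.5-fold (log2 0.59 ± 0.17 SE) and did not pass (adjusted p = 0.0722), and without replicate 3 it was smaller and passed (log2 0.32 ± 0.07 SE, adjusted p = 0.0242). Abcg1 split the treated libraries, at 1.37 and 0.952 CPM in replicates 1 and 2 and 3.02 CPM in replicate 3, around controls of 1.82 to 1.96 CPM. Npc1 and Npc2 had log2 changes of -0.23 and -0.08 (adjusted p = 0.129 and 0.543).

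**Figure D5:**
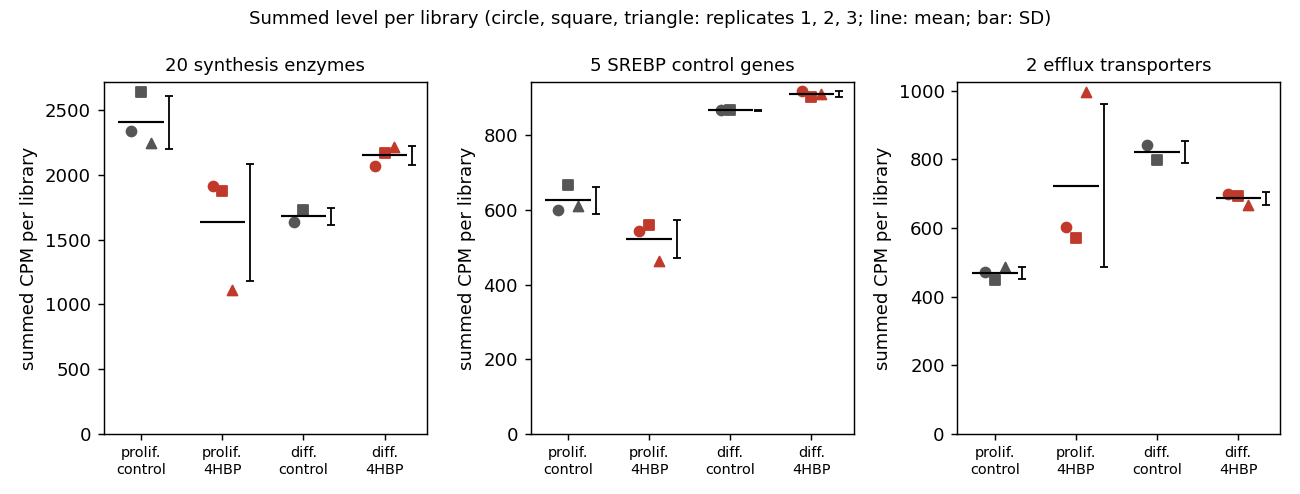
Summed CPM per library (y axis, from 0) of the 20 synthesis enzymes, the 5 SREBP control genes and the 2 efflux pumps in the 4 groups (x axis), with each replicate as a point, the mean as a line and the SD as a bar. The enzymes sum to 1112 to 1912 CPM under 4HBP against 2244 to 2639 CPM in proliferation controls. In differentiation medium they sum to 2069 to 2217 CPM under 4HBP against 1636 to 1727 CPM in controls. The efflux sum, which is nearly all Abca1, shows the opposite order.

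Taking both media side by side, 22 of the 32 genes, and 18 of the 20 enzymes, had a log2 change below 0 in proliferation medium and above 0 in differentiation medium. Over all genes tested in both media this was the case for 25.4% of 14130 genes. It was also the case for 11 of 11 genes of fatty acid synthesis, a list described further on, so the pattern was not particular to the sterol enzymes. The difference between the 2 responses was tested in 1 fit of all 11 libraries as an interaction, the change in differentiation medium minus that in proliferation medium. It was called for 9 of the 32 genes, 8 higher and 1 lower (28.1%), against 4.49% of 15920 genes, 2.48% higher and 2.01% lower. The 8 were the enzymes Mvk (1.31 on the log2 scale), Nsdhl (1.31), Fdft1 (1.19), Hmgcs1 (1.17), Mvd (1.13) and Sc5d (0.59), the regulator Insig1 (1.19) and the carrier Stard4 (1.298), with adjusted p of 0.0186 to 0.0389, and the 1 lower was Abca1 (-0.83, adjusted p = 0.0459). The median over the 20 enzymes was 0.90. The count of calls hung on single libraries. Of the 32 genes none passed without replicate 2 or 3 of 4HBP in differentiation medium (1.93% and 1.97% of all genes called) or without either control there (0.753% and 0.752%). Leaving out replicate 1 of 4HBP there gave 1 (1.95%), and leaving out replicate 1 or 2 of the proliferation controls gave 3 and 1 (2.54% and 2.6%). Without replicate 3 of 4HBP in proliferation medium 18 were higher and 1 lower (6.9%). The median of the enzymes stayed between 0.67 and 1.07 in all of these.

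The medium was compared as well. In controls, 9 of the 32 genes were higher in differentiation than in proliferation medium and 11 lower (62.5%), beside 61.4% of all genes, 30.8% higher and 30.6% lower, so the share called was near the background. Of the 20 enzymes 8 were lower and 1 higher, with a median of -0.39. Those that fell most were Nsdhl and Fdft1, both 2.60-fold lower, Cyp51 (2.17-fold), Pmvk (2.03-fold) and Dhcr7 (1.97-fold), and the carrier Stard4 was 2.92-fold lower. Hsd17b7 went the other way, 2.13-fold higher at 78.9 and 82.0 CPM against 30.5 to 41.8 CPM. The regulators Srebf1 (1.73-fold), Scap, Insig2 and Srebf2 rose while Insig1 fell 1.49-fold. Abca1 rose 1.64-fold, Abcg1 3.78-fold from a range of 1.82 to 1.96 CPM to 7.25 and 7.98 CPM, and Mylip 3.09-fold. Npc2 rose 1.3-fold. Lower calls numbered 17 rather than 11 when only the 5 control libraries were fitted (62.9% of all genes called), as also when replicate 3 of the proliferation 4HBP group was left out (66.1%).

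Under 4HBP the same comparison of media gave 19 of the 32 genes higher and 1 lower, Lbr (62.5%), beside 67.2% of all genes called, 33.3% higher and 33.8% lower. Of the 20 enzymes 12 were higher, led by Mvk (2.22-fold), Hsd17b7 (1.96-fold) and Idi1 (1.82-fold), with a median of 0.48. Without replicate 3 of the proliferation 4HBP group the median was 0.24 and lower calls numbered 8 (68.8% of all genes called), among them Msmo1 at -0.21 (adjusted p = 0.00945), which with it was at 0.03, and Abca1 turned from -0.12 to 0.15 (adjusted p = 0.0229). Both comparisons of media share libraries with the comparisons of 4HBP above and are not independent of them.

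Neighbouring pathways were read from lists of other genes. Of all genes, 7.43% were called in proliferation medium (9.75% without replicate 3 of 4HBP), 2.55% in differentiation medium and 4.49% for the interaction. Of 11 genes of fatty acid synthesis, the second SREBP program, 7 fell in proliferation medium and none rose, with a median of -0.59. Over all genes 3.69% were called lower there. The count was 7 without replicate 3 of 4HBP as well. It was 1 without replicate 2 of 4HBP or replicate 1 or 2 of the controls (290, 107 and 137 of all genes called). It was 0 with limma on log2(CPM + 1) or log2(CPM + 0.1) (18 and 22 of all genes called). Scd1, a desaturase, read 714, 874 and 739 CPM in controls and 472, 418 and 290 CPM under 4HBP (2.01-fold lower, adjusted p = 0.0148), Acss2, an acetyl-CoA synthetase, was 1.87-fold lower (0.00656) and Fasn, fatty acid synthase, 1.69-fold lower (0.0344), with Fads2, Scd2, Fads1 and Acaca also lower. In differentiation medium 2 of the 11 were higher, Me1 (1.16-fold) and Elovl6 (1.14-fold), and the median was 0.09, beside 0.36 for the sterol enzymes. Both calls were lost without some 1 library (adjusted p up to 0.268 and 0.309). The interaction was called for 7 of the 11, and for 1 without either differentiation control (0.753% and 0.752% of all genes called). Of 6 genes of SREBP cleavage and sterol-regulated ligases none passed in proliferation medium and 1 fell in differentiation medium, the ligase Rnf145 (log2 -0.20, adjusted p = 0.0215, and up to 0.231 without 1 library). Of 10 genes that use mevalonate for other products, 1 rose in proliferation medium, the prenyltransferase subunit Rabggta (0.54), and none passed in differentiation medium.

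Oxysterol, storage and LXR genes gave 2 of 9 lower in proliferation medium, the phospholipid enzyme Lpcat3 (log2 -0.42) and the transporter Abca2 (-0.45), beside 3.69% of all genes. In differentiation medium 0 of 10 were called, beside 2.55% of all genes. None had an unadjusted p under 0.05 there in the higher direction and 2 did in the lower, beside 15.9% of all genes in either direction. The LXR gene Nr1h2 had log2 changes of 0.01 and -0.14 in the 2 media and did not pass, and Ch25h did not pass the filter on low counts in either. Of 4 lipoprotein receptor genes Vldlr rose in proliferation medium (0.53, adjusted p = 0.0431) and none passed in differentiation medium. The counts of these lists in proliferation medium were equal without replicate 3 of 4HBP, and each single call among Lpcat3, Abca2, Rabggta and Vldlr was lost without some library (adjusted p up to 0.0779, 0.11, 0.137 and 0.14).

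Reads of some of the 32 genes can also belong to other genes, which the counting divides by estimate. Of all 40-base words in their transcripts, 41.3% of Acat2 were shared with other genes, chiefly its tandem paralog Acat3, 27.3% of Fdps, 23.1% of Tmem97, 18.3% of Idi1, 11.6% of Fdft1 and 10.7% of Tm7sf2, and at most 7.38% of any other, so these values are less certain. Acat3 was listed at 11.3 to 17.7 CPM in proliferation controls and 3.81 to 5.47 CPM under 4HBP, and at 3.22 and 4.02 CPM against 3.68 to 5.67 CPM in differentiation medium. The pseudogene Gm13502, which shares words with Idi1, was listed at 18.6 to 20.6 CPM against 6.89 to 14.5 CPM, and at 4.07 and 6.97 CPM against 9.02 to 11.3 CPM. Both lay on the same side as Acat2 and Idi1 in each medium by their means, with groups that overlapped in differentiation medium for Acat3. Protein-coding genes annotated on the opposite strand overlap Mvd, Ggps1, Fdft1, Cyp51, Lbr, Srebf1 and Npc1. Noncoding or unverified ones there overlap Hmgcs1, Idi1, Lss, Scap, Insig2 and Npc1. On the same strand the protein-coding genes Gm43738 and Vps51 overlap Fdps and Tm7sf2, in that order, and strand cannot separate those. The libraries were made with a stranded kit, and whether strand was used in counting is not given in the sources used here.

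Markers of other cell types moved alongside some of these results. Of all genes, 7.43% were called in proliferation medium (9.75% without replicate 3 of 4HBP) and 2.55% in differentiation medium. Between media in controls 61.4% were called (66.1% without that library). In proliferation medium 7 of 7 dividing-cell markers had a log2 change below 0 (median -0.44) and none passed; their summed level was 867 to 991 CPM in controls and 711, 838 and 459 CPM under 4HBP, lowest in replicate 3. Without replicate 3 all 7 were still below 0, with a median of -0.21. In differentiation medium 6 of 7 were above 0 (median 0.28) and Ccnb1 rose (0.49, adjusted p = 0.0476), with sums of 169 and 192 CPM against 200 to 222 CPM. Of 5 astrocyte markers 3 fell in proliferation medium, Gja1 (-0.85), Gfap (-0.68) and Aqp4 (-0.66), where the sums were 3992 to 4827 CPM in controls and 2726 to 3276 CPM under 4HBP, and none passed in differentiation medium, where the sums were 4036 to 4388 CPM and 3990 to 4327 CPM. Of 7 oligodendrocyte-lineage markers, Mbp among them, none passed in either medium. In proliferation medium 6 of 7 were below 0 (median -0.30, and -0.06 without replicate 3), with sums of 2561 to 3033 CPM in controls and 2699, 2537 and 1763 CPM under 4HBP, lowest in replicate 3. In differentiation medium their sums were 5052 and 5435 CPM against 5189 to 5348 CPM, and in controls 4 of 7 were higher in differentiation than in proliferation medium (7 of 7 without replicate 3 of proliferation 4HBP). Of 5 stem cell markers 4 were below 0 in proliferation medium (median -0.28) and none passed, and Fabp7 rose in differentiation medium (0.23, adjusted p = 0.017). In controls all 5 stem cell and all 7 dividing-cell markers were lower in differentiation medium. Of 4 choroid plexus and ependymal markers only Foxj1 passed the filter on low counts in either medium with all libraries, at 30.8 to 55.7 CPM in proliferation and 104 to 109 CPM in differentiation medium, and it was not called. Without replicate 3 of 4HBP 2 passed it in proliferation medium and 1 was lower. Of 6 neuronal markers none passed in either medium. The calls of Gja1, Gfap, Aqp4, Fabp7 and Ccnb1 were each lost without some library (adjusted p up to 0.0597, 0.0556, 0.0792, 0.298 and 0.308). The fibroblast and pericyte marker Pdgfrb was at 26.8 to 30.5 CPM in differentiation medium and at most 1.38 CPM in proliferation medium. Col1a1, Col1a2, Dcn and Lum of the same list did not go with it, at no more than 0.593 CPM in any library. The part of these markers in the sterol results was not tested.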

How the data were processed

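RNA-seq libraries were made by the authors with a stranded mRNA kit from hippocampal NSCs, 11 in all. Per the labels and the study's methods, reads were trimmed with cutadapt after FastQC 0.11.5 and quantified with RSEM 1.3.0 and Bowtie2 2.2.9 on mm10 (GRCm38). The deposited tables hold expected counts, TPM and FPKM per gene for each library. The expected counts that the authors deposited are estimates (18.6% of values above 0 are not whole) and were rounded for the tests. The TPM values deposited by the authors served only to order genes by level per length, and the deposited FPKM values were not used here. RSEM divides reads between similar genes by estimate.

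From the rounded counts, genes were filtered with filterByExpr, scaled by TMM and tested with edgeR 4.0.16 quasi-likelihood (R 4.3.3), with Benjamini-Hochberg adjustment over all genes and a threshold of 0.05. The 4HBP comparisons were fitted within each medium, and the interaction and the comparisons of media in 1 fit of 11 libraries. Log2 changes are edgeR fits, CPM is per library total, and printed errors are SE for changes and SD for levels. Alternatives used library totals, DESeq2 1.42.0, limma 3.58.1 (with voom or log2 CPM), no filter, a replicate block, other sets of libraries and leaving out each library. The edgeR steps were tested on simulated data. Gene positions and shared 40-base words came from a GENCODE annotation to which 99.7% of gene IDs matched, promoters from RefSeq. Depth was 20822921 to 23438463 counts, and 3 counts limit what can be seen, at 0.128 to 0.144 CPM, for counting error only.

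All 32 genes were named, and of each neighbouring list up to 6 called genes by size of change; Acaca, Me1, Elovl6, Nr1h2, Ch25h and the single markers were named after their values were seen. The genes, lists and tests were chosen with earlier results of these data known. Protein sequences were not used here. One marker gene is not reported here.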

Additional observations from a re-analysis of the deposited data

Results flagged for a closer look

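The response to 4HBP differed between media, by the interaction test of 11 libraries (log2 change in differentiation minus proliferation medium, edgeR quasi-likelihood, Benjamini-Hochberg adjusted over all genes), for 9 of the 32 genes. Higher were the enzymes Hmgcs1 (1.17, adjusted p = 0.0361), Mvk (1.31, 0.0186), Mvd (1.13, 0.0285), Fdft1 (1.19, 0.0389), Nsdhl (1.31, 0.0245) and Sc5d (0.59, 0.0284), with Insig1 (1.19, 0.0365) and Stard4 (1.298, 0.0332). Abca1 was lower (-0.83, adjusted p = 0.0459). None of the 9 stayed called without either control library of the differentiation medium. Over all genes 4.49% were called, and 0.753% and 0.752% without those controls.

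Of the fatty acid genes the interaction was called for Acss2 (1.06, edgeR adjusted p = 0.00378), Acaca (0.51, 0.0202), Fasn (0.85, 0.0458), Scd1 (1.02, 0.0278), Scd2 (0.65, 0.0245), Fads1 (0.69, 0.00942) and Fads2 (0.76, 0.0141). Over all genes 4.49% were called. The count of 7 was 1 without either differentiation control (0.753% and 0.752% of all genes called) and 3 without replicate 2 or 3 of 4HBP there (1.93% and 1.97%). It was 4 without replicate 1 of 4HBP there or replicate 2 of the proliferation controls (1.95% and 2.6%). With a replicate block within medium it was 1 (156 of 15920 genes called), and with limma on log2(CPM + 1) it was 2 (264 of 27295). The phospholipid enzyme Lpcat3 was called as well (0.42, adjusted p = 0.0215).

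Among cell type markers the interaction was called for the stem cell marker Fabp7 (0.59, edgeR adjusted p = 0.0204). It was also called for the astrocyte markers Gfap (0.68, 0.0192), Aqp4 (0.74, 0.0138) and Gja1 (0.82, 0.0187). No other marker reported here was called. Over all genes 4.49% were called, and 0.753% and 0.752% without either differentiation control. Values of these marker calls without single libraries are not given here.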

How the results depend on the processing

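The median change of the 20 enzymes kept its direction in all alternatives for which it was computed in each 4HBP comparison. The number of calls varied. In proliferation medium (0 of the 32 genes higher, 2 lower, 1074 of 14449 genes called) DESeq2 gave 1 higher, 7 lower and 1633 of 14449 genes. No filter gave 1 higher, 13 lower and 1546 of 23759 genes. All 11 libraries in 1 fit gave 1 higher, 15 lower and 2668 of 15920 genes. Limma gave 0 lower and 18 of 23841 genes on log2(CPM + 1), and 0 lower and 22 of 23841 genes on log2(CPM + 0.1). Leaving out 1 library gave 0 to 2 higher, 0 to 10 lower and 107 to 1429 genes, with 0 lower without replicate 2 of 4HBP or replicate 1 or 2 of the controls. In differentiation medium (18 higher, 1 lower, 395 genes, 2460 at an unadjusted p under 0.05) the 11-library fit and limma on either scale gave 0 higher, 0 lower and 0 genes, with 644, 2660 and 1917 genes at an unadjusted p under 0.05. No filter gave 778 genes, and leaving out 1 library 77 to 288 genes, lowest without control replicate 1. For the interaction (8 higher, 1 lower, 715 of 15920 genes) DESeq2 called 1086 of 15920 genes, and no filter 20 higher and 1616 of 27110 genes. Voom gave 0 lower and 662 of 15920 genes. With sample weights by medium voom gave 18 higher and 1025 of 15920 genes. Limma on log2(CPM + 1) gave 0 higher, 0 lower and 264 of 27295 genes. At an unadjusted p under 0.05 limma gave 20 of the 32 higher and 1 lower, beside 15.1% of all genes. Leaving out 1 library gave 0 to 18 higher, 0 to 1 lower and 124 to 1100 genes. In the comparison of media in controls (11 lower, 9771 of 15920 genes called) no filter and the control libraries alone each gave 17 lower. They called 10012 of 27110 and 9631 of 15308 genes. Leaving out 1 library gave 8 to 17 lower and 7907 to 10477 genes. Under 4HBP (1 lower, 10692 of 15920 genes called) no filter gave 5 lower and 11140 of 27110 genes. Leaving out 1 library gave 1 to 8 lower and 9830 to 10915 genes. There, leaving out 1 library moved Msmo1 between -0.21 and 0.18 and Abca1 between -0.24 and 0.15, and without replicate 3 of the proliferation 4HBP group both reversed, to -0.21 and 0.15. The cause of these differences was not tested. With library totals the median of all genes moved from 0.03 to 0.11 in the comparison of media in controls.

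Correlations of the deviations of libraries with the same replicate number ran from -0.104 to 0.0577. The deviations were taken from means of very few libraries, and those of the differentiation controls mirror each other. They therefore cannot decide whether the same number marks a pair. The replicate block gave 6 lower and 534 genes in proliferation medium, 745 genes in differentiation medium, and, within medium, 3 higher, 0 lower and 156 genes for the interaction.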
